A study of Mus musculus with 10 samples.

Results

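The Snhg (small nucleolar RNA host gene) lncRNAs named Snhg1, Snhg5, Snhg6, Snhg8, Snhg9, Snhg11, Snhg12, Snhg14, Snhg15 and Snhg17 were taken by gene symbol from the transcript quantification of mouse dorsal root ganglia (DRG). These 10 genes were 10 of 54309 genes, and their 100 transcripts were 100 of 140789 transcripts quantified. RNA-seq was done 24 h after complete transection of the sciatic nerve (axotomy) or a sham operation in female and male C57BL/6 mice aged 6 to 8 weeks, on left DRG of lumbar levels 4 and 5. There were 3 female axotomy libraries against 2 female sham libraries and 3 male axotomy libraries against 2 male sham libraries. The labels name no genetic change in any group, and each library pooled the ganglia of 2 mice, so that p-values measure the spread between pools. The libraries held 55258476 to 90111671 estimated counts, at which 3 counts correspond to 0.0333 to 0.0543 CPM (counts scaled to the library total).

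A Snhg gene is transcribed by RNA polymerase II, and its introns carry small nucleolar RNAs (snoRNAs). After splicing, the snoRNA is trimmed out of the intron and assembled with proteins, while the spliced exons form a polyadenylated lncRNA. Box C/D snoRNAs guide 2'-O-methylation and box H/ACA snoRNAs guide pseudouridylation, mostly of ribosomal and spliceosomal RNA. The spliced RNA of several hosts is a substrate of nonsense-mediated decay, and its level therefore need not follow that of the snoRNA. A poly-A library, as used here, captures the spliced host RNA and its unspliced polyadenylated forms and very little mature snoRNA. Snhg14 differs from the others: it is the very long paternally expressed transcript of the Snrpn to Ube3a imprinted region, runs antisense into Ube3a in neurons, and carries arrays of repeated box C/D snoRNAs.

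The snoRNAs that the members carry are shown first, because they divide the members by the class of RNA hosted. In the Gencode M21 annotation (GRCm38; the quantification itself used Gencode M27, GRCm39), 232 snoRNA genes lie inside the 10 host genes on the same strand. Of these, 208 lie in Snhg14, 8 in Snhg1, 5 in Snhg12 (2 of them overlapping entries for Snora16a), 3 in Snhg17, 2 each in Snhg5 and Snhg11, and 1 each in Snhg6, Snhg8, Snhg9 and Snhg15. A C box (TGATGA, starting within the first 15 bases) together with a D box (CTGA, starting within the last 15 bases) was found on the sense strand in 9 of the 24 snoRNAs outside Snhg14, in 198 of all 232 (85.3%) and in 305 of all 1507 annotated snoRNA genes (20.2%).

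Snhg1 and Snhg5, the members with the largest log2FC after axotomy among the 9 with counts in every library, and Snhg6 carry the following box C/D snoRNAs, printed 5′ to 3′ with the C box and the D box in capitals. The host, the position in GRCm38 and the strand follow the sequences.
Gm25855: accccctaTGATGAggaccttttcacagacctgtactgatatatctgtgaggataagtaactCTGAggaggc
Gm24452: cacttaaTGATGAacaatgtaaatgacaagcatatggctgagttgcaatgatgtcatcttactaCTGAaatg
Gm22744: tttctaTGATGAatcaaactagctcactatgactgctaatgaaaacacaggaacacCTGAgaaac
Gm22680: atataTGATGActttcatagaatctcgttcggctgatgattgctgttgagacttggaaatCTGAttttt
Gm23246: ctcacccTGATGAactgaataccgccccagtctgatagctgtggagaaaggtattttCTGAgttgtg
Snord50a: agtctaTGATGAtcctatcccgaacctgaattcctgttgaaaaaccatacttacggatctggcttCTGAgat
Snord50b: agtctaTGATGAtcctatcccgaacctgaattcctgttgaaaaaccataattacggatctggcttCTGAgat
Snord87: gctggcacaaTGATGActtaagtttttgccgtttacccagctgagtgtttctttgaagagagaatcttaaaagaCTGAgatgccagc
The first 5 lie in Snhg1 on the plus strand, at chr19:8723993-8724064 (Gm25855), chr19:8724531-8724602 (Gm24452), chr19:8725092-8725156 (Gm22744), chr19:8725341-8725409 (Gm22680) and chr19:8725594-8725660 (Gm23246). Snord50a (chr9:88521529-88521600) and Snord50b (chr9:88521797-88521868) lie in Snhg5 on the minus strand, are 72 bases long each, and differ by 1 substitution, C50A, counted from the 5′ end with the Snord50a base first. Snord87 lies in Snhg6 on the minus strand at chr1:9942463-9942549.

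The other class is shown by the snoRNAs of Snhg12 and Snhg15, box H/ACA RNAs in which the trinucleotide ACA stands 3 bases before the 3′ end, here in capitals. It was found at that place in 6 of the 24 snoRNAs outside Snhg14 (25%), namely in Snhg12, Snhg15, Snhg8 and Snhg9, and in 276 of the 1507 annotated snoRNA genes (18.3%). The annotated snoRNAs of Snhg11 and Snhg17 have ACA as their last 3 bases, which this rule does not count. Their class is therefore not decided by it.
Snora61: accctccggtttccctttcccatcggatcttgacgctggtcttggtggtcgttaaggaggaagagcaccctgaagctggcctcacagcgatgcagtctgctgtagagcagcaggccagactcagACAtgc
Snora9: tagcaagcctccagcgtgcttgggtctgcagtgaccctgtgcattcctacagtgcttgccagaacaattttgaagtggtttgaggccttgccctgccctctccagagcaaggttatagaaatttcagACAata
Snora61 lies in Snhg12 (plus strand, chr4:132310240-132310369) and Snora9 in Snhg15 (minus strand, chr11:6528033-6528165). Snhg12 also holds a box C/D gene, Snord99, so it hosts both classes.

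Snhg14 holds the same sequences many times over. Its 208 snoRNA genes have 85 distinct sequences, and the most frequent of them are shown, with the C and D boxes in capitals.
Gm24866: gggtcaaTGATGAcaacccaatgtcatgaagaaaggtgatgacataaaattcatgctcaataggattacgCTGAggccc
Snord116l17: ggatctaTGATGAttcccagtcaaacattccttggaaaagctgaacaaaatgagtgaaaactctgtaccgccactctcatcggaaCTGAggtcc
The sequence of Gm24866 (minus strand, chr7:59393561-59393639) occurs in 33 genes of the host and that of Snord116l17 (minus strand, chr7:59861731-59861824) in 30.

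The hosted snoRNAs whose gene identifiers matched the quantification were close to absent from these libraries. Of the 208 in Snhg14 only 9 matched, and the others were not read. The quantification has 1364 snoRNA transcripts, which together received 370 to 727 estimated counts per library, and 207 of them had a count in any library. All 8 snoRNAs of Snhg1 were at 0 in all 10 libraries, as were those of Snhg8, Snhg12, Snhg15 and Snhg17 whose gene identifiers are in the files, and the 9 of Snhg14 that are. Snord87 had 0 to 5 counts per library, Snora78 of Snhg9 0 to 7, and Gm25129 of Snhg11 5 to 37. Neither Snord50a nor Snord50b was analysed, since neither identifier matched. What follows is therefore a description of the host RNAs, not of the snoRNAs.

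Many hosts of snoRNAs begin with a 5′ terminal oligopyrimidine tract, a C followed by a run of pyrimidines, which places the RNA under translational control together with ribosomal protein mRNAs. A C followed by at least 4 bases that are each C or T, starting within 10 bases of the annotated start on the sense strand, was found in 10093 of 32851 RefSeq promoter windows (30.7%). Of the 9 members with a RefSeq window (GRCm38.p6), 4 had such a tract, and Snhg6 had no entry. The 4 windows with a tract and that of Snhg1, which had none, are printed from 30 bases before the start to 30 bases from it on, with the tract in capitals.
Snhg8: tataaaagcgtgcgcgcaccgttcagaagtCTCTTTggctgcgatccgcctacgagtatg
Snhg12: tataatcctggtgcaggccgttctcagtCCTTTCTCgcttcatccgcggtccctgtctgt
Snhg5: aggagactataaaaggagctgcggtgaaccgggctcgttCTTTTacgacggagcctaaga
Snhg9: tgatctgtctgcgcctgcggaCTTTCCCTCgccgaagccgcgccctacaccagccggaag
Snhg1: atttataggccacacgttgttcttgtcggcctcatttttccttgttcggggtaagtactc
The windows are chr3:123508307-123508366 (Snhg8, minus strand), chr4:132308648-132308707 (Snhg12, plus), chr9:88522868-88522927 (Snhg5, minus), chr17:24719936-24719995 (Snhg9, minus) and chr19:8723457-8723516 (Snhg1, plus). The tract of Snhg8 starts at the annotated start itself, that of Snhg12 begins 2 bases before it, that of Snhg5 9 bases after it, and that of Snhg9 9 bases before it. A match of these letters is not a mapped start site.

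The members covered a wide range of levels in DRG. Compared per length, in TPM (counts divided by transcript length and scaled to the library total), Snhg11 was the most abundant by far, at 529 ± 47.8 TPM in axotomy DRG and 589 ± 20.5 TPM in sham DRG (SD, n = 6 and n = 4), and it alone held 61.5% of the members' summed TPM in sham DRG. Snhg11, a host known from brain as strongly expressed in neurons, stood at percentile 99.4 of all genes with a TPM above 0 in sham DRG. Snhg14 followed with 155 ± 15.2 TPM in axotomy DRG and 183 ± 6.18 TPM in sham DRG, at percentile 97.3. Next in the sham order came Snhg8 (62.5 ± 13.2 TPM in axotomy DRG and 54.1 ± 4.71 TPM in sham DRG), Snhg6 (62.9 ± 12.4 and 43.7 ± 0.839 TPM in the same order of groups) and Snhg1 (68.8 ± 13.1 and 33.0 ± 2.39 TPM).

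**Figure D1:**
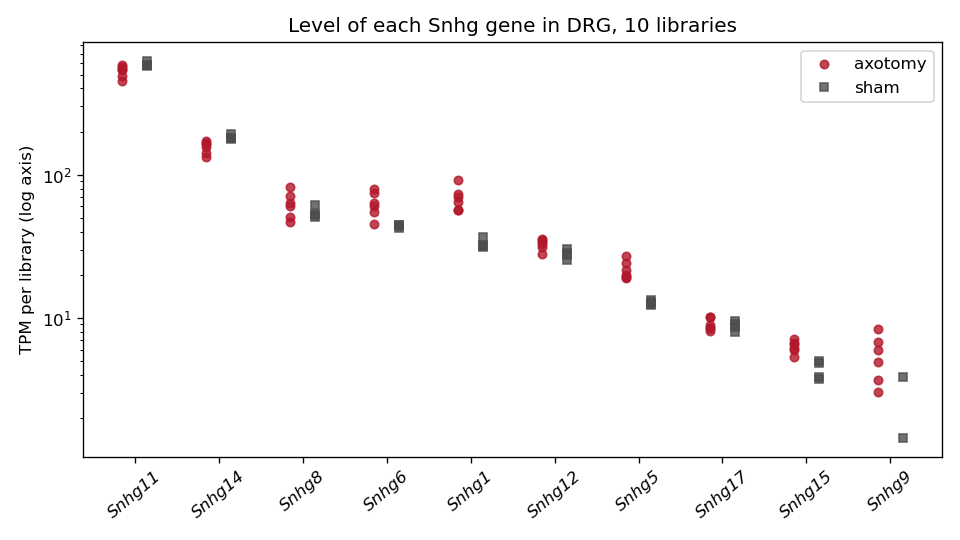
TPM of each Snhg gene per library on a log axis, with genes in falling order of their mean in sham DRG, circles for the 6 axotomy libraries and squares for the 4 sham libraries. Snhg11 lies between 454 and 619 TPM in all libraries, above every other member, and the 2 female sham libraries are not drawn for Snhg9 because its TPM there is 0.

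Snhg12 had 32.6 ± 2.82 TPM in axotomy DRG and 27.9 ± 2.00 TPM in sham DRG, and Snhg5 21.8 ± 3.23 TPM against 12.8 ± 0.459 TPM. Snhg17 was at 9.05 ± 0.890 TPM in axotomy DRG and 8.78 ± 0.625 TPM in sham DRG, and Snhg15 at 6.29 ± 0.644 TPM against 4.36 ± 0.662 TPM. In the 4 sham libraries the ranges of neighbours in this order did not overlap, with the exception of the last pair, Snhg15 (3.72 to 5.01 TPM) and Snhg9 (0 to 3.87 TPM). TPM is a share of each library's total, and over the 20561 tested genes with TPM above 0 in every library the median log2 TPM of axotomy minus sham was −0.12 in females and −0.18 in males. Changes after axotomy are therefore given below from counts with TMM scaling, not from TPM.

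Axotomy DRG were compared with sham DRG in each sex and as the mean of both sexes, by edgeR's quasi-likelihood test over 20836 genes with Benjamini-Hochberg adjustment over all of them and a call at padj under 0.1. Snhg9 passed the filter on low counts only through axotomy libraries and is left out of the counts of members. In the mean of the sexes 6 of the other 9 members rose (Snhg1, Snhg5, Snhg6, Snhg12, Snhg15 and Snhg17) and none fell, against 23.9% of all genes called higher and 22.6% called lower. In females 5 rose and none fell (10.4% of all genes were higher and 9.74% lower), and in males 7 rose and 1 fell (21.8% higher and 20.1% lower). The 5 called in females (Snhg1, Snhg5, Snhg6, Snhg12 and Snhg15) were all called higher in males too, where Snhg8 and Snhg17 were added. The median log2FC of the 9 members was 0.38 in the mean of the sexes, against 0.02 over all genes tested, 0.40 against 0.00 in females and 0.57 against 0.03 in males. The members share libraries, and these counts are not 9 independent observations. Whether CPM ranges overlap is given below as a description, without the share of all genes, which was not computed. With so few libraries ranges can be apart without a call, as for Snhg14 (padj = 0.910) and Snhg17 (padj = 0.552) in females.

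**Figure D2:**
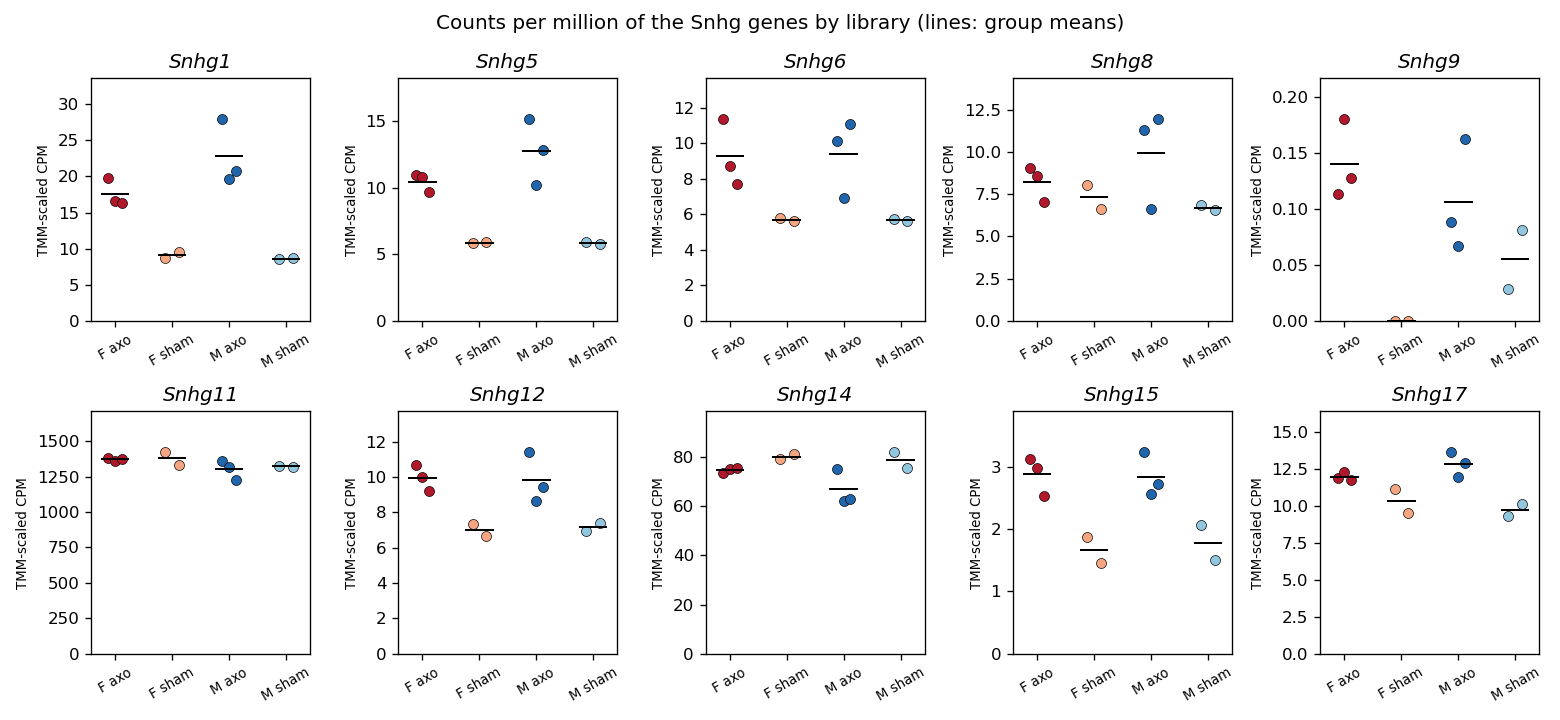
TMM-scaled CPM of the 10 Snhg genes, 1 panel per gene with its own axis from 0, for female axotomy, female sham, male axotomy and male sham libraries. Points are libraries and lines are group means. All axotomy libraries lie above all sham libraries for Snhg1, Snhg5, Snhg6, Snhg12, Snhg15 and Snhg17, and Snhg11 lies between 1223 and 1425 CPM throughout. The share of all genes with groups apart in this way was not computed.

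Cell type markers moved in the same libraries. Macrophage markers summed to 53.9 to 64.9 CPM in female axotomy DRG against 46.7 to 51.9 CPM in female sham DRG and to 68.5 to 131 CPM in male axotomy DRG against 35.9 to 39.9 CPM in male sham DRG, with 6 of 6 called higher in males and 1 of 6 in females. Fibroblast markers summed to 621 to 711 CPM against 769 to 804 CPM in females and to 833 to 1619 CPM against 596 to 624 CPM in males, axotomy before sham, with 5 of 5 called higher in males and 2 of 5 called lower in females. The 8 sensory neuron markers summed to 9715 to 10209 CPM in female axotomy DRG against 10426 to 11006 CPM in female sham DRG and to 8465 to 10261 CPM in male axotomy DRG against 11174 to 11848 CPM in male sham DRG, with 3 of 8 called lower in females and, in males, 4 called lower and 1 higher. The neuronal markers were thus lower in sum in the axotomy libraries of either sex, and present in every library. Schwann cell markers summed to 4443 to 6650 CPM against 5277 to 7408 CPM in females (0 of 4 called) and to 6718 to 9297 CPM against 4731 to 5247 CPM in males (4 of 4 called higher), and satellite glia markers to 1223 to 1352 CPM against 1173 to 1239 CPM in females (1 of 4 called higher and 2 lower) and to 1468 to 1614 CPM against 1142 to 1177 CPM in males (3 of 4 called higher), axotomy before sham. Skeletal muscle markers ranged from 3.07 to 98.9 CPM in female axotomy DRG against 1.47 to 3.39 CPM in female sham DRG, and from 4.53 to 15.9 CPM in male axotomy DRG against 2.60 to 25.7 CPM in male sham DRG. No listed marker was at 0 in all libraries. In bulk ganglia a change in the number of cells of a type and a change in RNA per cell cannot be told apart, and the part of these shifts in the values of the Snhg genes was not tested.

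Snhg1, host of the 8 snoRNAs on chromosome 19, showed the largest increase of the 9 members. It had 19.8, 16.5 and 16.3 CPM in female axotomy DRG, against 8.71 and 9.56 CPM in female sham DRG. Male axotomy DRG held 27.99, 19.7 and 20.8 CPM, against 8.51 and 8.76 CPM in sham DRG. The lowest axotomy library was thus well above the highest sham library in either sex, and the sham libraries were close together. The log2FC was 0.92 ± 0.15 in females (SE, padj = 0.00457), 1.49 ± 0.15 in males (padj = 0.000387) and 1.21 ± 0.11 in the mean of the sexes (padj = 4.28e-05), the last a 2.31-fold increase. The call held in females, in males and in the mean without any 1 of the 10 libraries, with padj up to 0.0616 in females.

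Snhg5, which carries Snord50a and Snord50b, had 10.9, 10.8 and 9.67 CPM in female axotomy DRG, against 5.87 and 5.88 CPM in female sham DRG. In male axotomy DRG it had 15.2, 10.2 and 12.8 CPM, against 5.88 and 5.80 CPM in sham DRG. The 4 sham libraries lay between 5.80 and 5.88 CPM, and the axotomy libraries were above them and more dispersed. The log2FC was 0.72 ± 0.16 in females (padj = 0.0192), 1.13 ± 0.17 in males (padj = 0.0013) and 0.92 ± 0.12 in the mean (padj = 0.000253), or 1.90-fold. The female call was lost without female sham 1 (padj = 0.122) or female sham 2 (padj = 0.135), where a single sham library is assumed to vary like the other groups. The male and mean calls held without any 1 library.

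Snhg6, host of Snord87, had 11.4, 8.69 and 7.72 CPM in female axotomy DRG, against 5.77 and 5.63 CPM in female sham DRG. Male axotomy DRG had 10.1, 6.89 and 11.1 CPM, against 5.71 and 5.63 CPM in sham DRG. The groups did not overlap in either sex, but male axotomy 2 lay much nearer to sham than the other male axotomy libraries. The log2FC was 0.68 ± 0.24 in females (padj = 0.0943), 0.70 ± 0.24 in males (padj = 0.0484) and 0.69 ± 0.17 in the mean (padj = 0.0097), or 1.61-fold. The mean call held without any 1 library. The female call stood close to the threshold and was lost in 7 of the 10 leave-one-out fits. It was lost without female sham 1 (padj = 0.276), female sham 2 (0.350), male sham 1 (0.137), male sham 2 (0.131), female axotomy 1 (0.273), female axotomy 2 (0.145) or male axotomy 1 (0.105), and the male call without male sham 1 (0.176), male sham 2 (0.201), male axotomy 1 (0.113) or male axotomy 3 (0.139). Snhg6 overlaps the end of the antisense gene Mcmdc2 by 127 bases in GRCm38, and no source used states whether the quantification took strand into account, so a contribution of Mcmdc2 reads cannot be told apart. Mcmdc2 itself had a log2FC of 0.28 ± 0.13 in the mean of the sexes (padj = 0.106).

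Snhg15, host of Snora9 and an RNA of low level, had 3.13, 2.98 and 2.53 CPM in female axotomy DRG, against 1.87 and 1.46 CPM in female sham DRG. The level was 3.24, 2.56 and 2.72 CPM in male axotomy DRG, against 2.06 and 1.498 CPM in male sham DRG. The ranges did not overlap, although the sham libraries of each sex differed by nearly as much as the axotomy libraries did. The log2FC was 0.72 ± 0.20 in females (padj = 0.0415), 0.65 ± 0.20 in males (padj = 0.0289) and 0.68 ± 0.14 in the mean (padj = 0.00343), or 1.61-fold. The mean call held without any 1 library. The female call was lost without female sham 1 (padj = 0.105), female sham 2 (0.304), female axotomy 1 (0.130) or female axotomy 2 (0.1001), and the male call without male sham 2 (0.246).

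Snhg12, host of both snoRNA classes, had 10.7, 10.01 and 9.21 CPM in female axotomy DRG, against 7.35 and 6.69 CPM in female sham DRG. In male DRG it had 11.4, 8.63 and 9.45 CPM in axotomy DRG, against 6.95 and 7.37 CPM in sham DRG. The groups were apart in both sexes by a smaller margin than for Snhg1 or Snhg5. The log2FC was 0.40 ± 0.14 in females (padj = 0.0800), 0.36 ± 0.14 in males (padj = 0.0598) and 0.38 ± 0.10 in the mean (padj = 0.00959), or 1.302-fold. The mean call held without any 1 library, while the female call was lost without female sham 1 (padj = 0.124), female sham 2 (0.454), male sham 1 (0.121), male sham 2 (0.113), female axotomy 1 (0.197) or female axotomy 2 (0.178), and the male call without male sham 1 (0.243), male sham 2 (0.187) or male axotomy 1 (0.178).

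Snhg17 lies next to Snhg11 on chromosome 2 on the opposite strand and carries 3 snoRNA genes. It had 11.9, 12.3 and 11.7 CPM in female axotomy DRG, against 11.1 and 9.51 CPM in female sham DRG. In males its values were 13.6, 11.9 and 12.8 CPM in axotomy DRG, against 9.32 and 10.1 CPM in sham DRG. CPM ranges did not overlap, but the effective length that the quantification assigned to the gene also differed, at 1951 to 2339 bases in axotomy libraries against 1739 to 2156 bases in sham libraries. With that length as an offset the log2FC was 0.11 ± 0.11 in females (padj = 0.552), 0.28 ± 0.11 in males (padj = 0.0652) and 0.20 ± 0.08 in the mean (padj = 0.0644), or 1.15-fold. Without the offset it was 0.21 (padj = 0.162), 0.40 (padj = 0.0095) and 0.31 (padj = 0.00466). The mean call was lost without female sham 2 (padj = 0.244), male sham 2 (0.213), female axotomy 2 (0.131) or male axotomy 1 (0.119), and the male call without male sham 1 (0.137), male sham 2 (0.348) or male axotomy 1 (0.181).

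**Figure D3:**
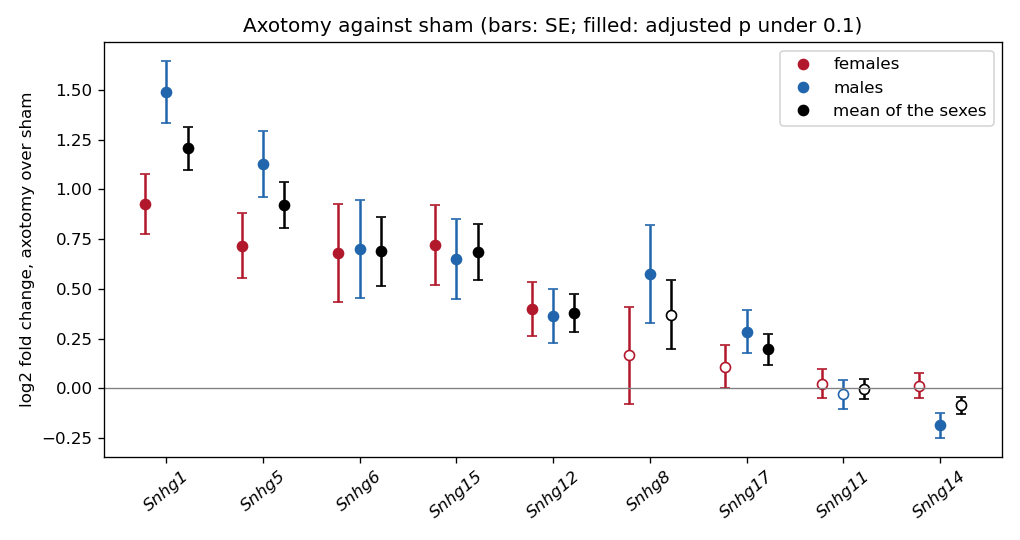
Log2 fold change of axotomy over sham for the 9 Snhg genes with counts in every library, in females, in males and as the mean of the sexes, with standard errors as bars and filled points where padj is under 0.1. Snhg1 has the highest value in each comparison (0.92, 1.49 and 1.21), and Snhg11 lies near 0 in each. Snhg14 is called lower in males (−0.19) and is not called in females (0.01) or in the mean (−0.09).

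Snhg8, host of Snora24, had 9.07, 8.55 and 7.02 CPM in female axotomy DRG, against 8.04 and 6.61 CPM in female sham DRG. In males it had 11.3, 6.59 and 12.0 CPM in axotomy DRG, against 6.84 and 6.54 CPM in sham DRG. The female groups overlapped, and in males male axotomy 2 fell within the sham range while the other 2 axotomy libraries were far above it. The log2FC was 0.17 ± 0.24 in females (padj = 0.701), 0.57 ± 0.25 in males (padj = 0.0978) and 0.37 ± 0.17 in the mean (padj = 0.118). Leaving out male axotomy 2 brought the mean call past the threshold (log2FC 0.49, padj = 0.0035), as did leaving out female axotomy 3 (padj = 0.0858), DESeq2 (0.0821) and a fit without the length offset (0.0895). The male call was lost with RLE scaling (padj = 0.103), without a filter on low counts (0.229), with a filter at a total of 10 counts (0.118), with the replicate block (0.160) and with males fitted on their own libraries (0.152). It was also lost in 8 of the 10 leave-one-out fits, with padj of 0.122 without female sham 1, 0.124 without female sham 2, 0.254 without male sham 1, 0.310 without male sham 2, 0.104 without female axotomy 1, 0.120 without female axotomy 2, 0.212 without male axotomy 1 and 0.276 without male axotomy 3.

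Snhg11 was at 1380, 1362 and 1377 CPM in female axotomy DRG, against 1425 and 1335 CPM in female sham DRG. In males it was at 1359, 1320 and 1223 CPM in axotomy DRG, against 1323 and 1320 CPM in sham DRG. The groups overlapped in both sexes, and at 75197 to 118922 counts per library the counting error was small beside the spread between libraries. The log2FC was 0.02 ± 0.07 in females (padj = 0.869), −0.03 ± 0.07 in males (padj = 0.795) and 0.00 ± 0.05 in the mean (padj = 0.974). Over the 10 libraries, the genes with log2 CPM most like that of Snhg11 were Marveld3 (Pearson r = 0.961), Mfsd4b1 (0.914), Mical1 (0.913), Stard3 (0.906) and Smyd2 (0.890). They were picked as the highest correlations among all genes tested, over libraries that share their groups, and are given as a description.

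Snhg14 had 73.4, 75.1 and 75.2 CPM in female axotomy DRG, against 78.9 and 81.0 CPM in female sham DRG. In males it had 75.0, 62.2 and 62.97 CPM in axotomy DRG, against 81.9 and 75.5 CPM in sham DRG. Every axotomy library was below every sham library of its sex in CPM, but the effective length of the gene moved as well, at 661 to 847 bases in axotomy libraries against 738 to 785 bases in sham libraries. With the length offset the log2FC was 0.01 ± 0.06 in females (padj = 0.910), −0.19 ± 0.06 in males (padj = 0.0417) and −0.09 ± 0.04 in the mean (padj = 0.152). Without it the values were −0.10 (padj = 0.457), −0.24 (padj = 0.0456) and −0.17 (padj = 0.0401), so that the mean call depends on the offset and the female value, not called under either, changes sign with it. The male call was lost without male sham 1 (padj = 0.265), male sham 2 (0.103) or male axotomy 1 (0.114), and the mean value was called without male axotomy 3 (padj = 0.0888). Snhg14 overlaps Ube3a on the other strand over 3613 bases in GRCm38. Ube3a, the ubiquitin ligase at the end of the region, had a log2FC of 0.10 ± 0.06 in the mean of the sexes (padj = 0.220).

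Snhg9, host of Snora78, was at the limit of detection. It had 7, 10 and 8 counts in female axotomy DRG, against 0 and 0 counts in female sham DRG. Male axotomy DRG had 6, 6 and 10 counts, against 2 and 5 counts in sham DRG. All axotomy libraries held more counts than any sham library, 47 counts in 6 libraries against 7 counts in 4, but scaled to depth the male groups overlapped (0.0666 to 0.163 CPM in axotomy DRG against 0.0288 to 0.0814 CPM in sham DRG). The female axotomy mean was 3.11-fold a floor of 3 counts per library in the female sham libraries. This ratio leaves out the counting error of the axotomy libraries and is not a lower bound. Snhg9 passed the filter only through axotomy libraries, so these values are no support for a rise. Its fitted fold change is not given. The gene lies wholly inside Rps2, a ribosomal protein gene, on the opposite strand (435 bases in GRCm38). Rps2 rose with a log2FC of 0.40 ± 0.09 in the mean of the sexes (padj = 0.00468), and reads of both genes cannot be told apart unless the counting used strand.

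The responses of females and males were compared by the sex by injury difference (male log2FC minus female log2FC). None of the 9 members was called, against 0.0192% of all genes. In edgeR's quasi-likelihood test 2 had an unadjusted p under 0.05, against 2368 of the 20836 genes tested. DESeq2 called none either. These 2 were Snhg1, with a difference of 0.56 ± 0.21 (padj = 0.358), and Snhg14, with −0.20 ± 0.09 (padj = 0.431). Snhg5 differed by 0.41 ± 0.23 (padj = 0.511) and Snhg6 by 0.02 ± 0.34 (padj = 0.989). Without male axotomy 2, Snhg1 (0.66, padj = 0.0854) and Snhg5 (0.57, padj = 0.0665) were called, and the share of all genes called in that fit was not computed. That library had the lowest CPM of the male axotomy group for every member but Snhg11, so also for Snhg1 and Snhg5 themselves. The difference in calls between the sexes for Snhg8 and Snhg17 is thus not a tested difference of response (padj = 0.661 and 0.667).

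Male and female DRG were also compared directly after each operation. After axotomy none of the 9 members was called by edgeR, against 1.52% of all genes, while DESeq2 called 2. In edgeR 4 had an unadjusted p under 0.05, against 3201 of the 20836 genes tested. The largest difference of the 9 was that of Snhg1, with a log2FC of 0.47 ± 0.13 (male over female, padj = 0.137), which DESeq2 called (0.46, padj = 0.0279). Snhg14 was lower in males by DESeq2 (−0.17, padj = 0.0948) and not called by edgeR (−0.16 ± 0.06, padj = 0.220). Without male axotomy 2, 4 members were called, namely Snhg1 (0.56, padj = 0.0293), Snhg5 (0.48, padj = 0.022), Snhg8 (0.52, padj = 0.0455) and Snhg14 (−0.17, padj = 0.0992). The share of all genes called was not computed for DESeq2 or for the fit without male axotomy 2. Those counts of members therefore have no background. In sham DRG none of the 9 was called by edgeR or DESeq2, against 0.0432% of all genes. None had an unadjusted p under 0.05 in edgeR, against 670 of the 20836 genes tested. The median log2FC of male over female was −0.03.

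Correlations between the members over the libraries are given as a description. Among the 6 called in the mean of the sexes, Pearson r of log2 CPM over 10 libraries was 0.83 to 0.99 in the 15 pairs, the highest being that of Snhg1 with Snhg5. With Snhg11 these 6 had r of −0.21 to 0.04, and with Snhg14 −0.63 to −0.42. Snhg8, not called in the mean, had r of 0.67 to 0.83 with the same 6. All pairs share the same libraries and the same axotomy and sham groups, which enter these values. The 6 were chosen by their difference between those groups, so a high r among them was set in advance. No correlation of the members was computed within groups.

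Single transcripts were then compared, by the same test over 63191 transcripts. Of the members' 100 transcripts, 91 had a count in any library and 70 were tested. Of the 70, 13 rose and 3 fell in the mean of the sexes, against 9.58% of all transcripts called higher and 8.52% called lower. That of Snhg9, its only transcript, is among the 13 and rests on the counts given above. It passed the filter only through axotomy libraries and is no support for a rise. Of the other 9 members 15 transcripts were called in either direction. How Salmon divides reads between transcripts of 1 gene is an estimate, and where a transcript is at 0 in some libraries and among the main ones in others the division is uncertain.

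Snhg1 is quantified as 18 transcripts, 14 of them annotated as retaining an intron. The spliced Snhg1-211 held 52.7% of the gene's counts, and rose with a log2FC of 1.24 ± 0.15 (padj = 0.00359). It had 10.6, 8.60 and 7.86 CPM in female axotomy DRG against 4.00 and 5.18 CPM in female sham DRG, and 14.95, 10.4 and 12.3 CPM in male axotomy DRG against 3.94 and 4.86 CPM in male sham DRG. The retained-intron transcripts Snhg1-215 (23.5% of counts) and Snhg1-203 (14.2%) rose too, by 1.06 ± 0.18 (padj = 0.0106) and 1.05 ± 0.21 (padj = 0.016). Spliced and intron-retaining forms of Snhg1 were thus both called higher in the mean of the sexes. In females Snhg1-211 was called (0.97 ± 0.21, padj = 0.0824). Snhg1-215 (0.88 ± 0.26, padj = 0.163) and Snhg1-203 (0.95 ± 0.29, padj = 0.177) were not called in females. In males all of them were called (padj = 0.014, 0.0329 and 0.0552 in the same order).

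Snhg6 showed 3 of 4 tested transcripts higher: Snhg6-203, with 63.8% of the counts, at 0.71 ± 0.19 (padj = 0.0497), Snhg6-205 at 1.13 ± 0.16 (padj = 0.00544) and Snhg6-202 at 1.02 ± 0.27 (padj = 0.0428). Snhg6-204, with 18.1% of the counts, had 0.36 ± 0.24 (padj = 0.403). Snhg15 had 2 of 4 higher, Snhg15-203 at 1.25 ± 0.20 (padj = 0.00828) and Snhg15-204 at 0.69 ± 0.17 (padj = 0.0394), while Snhg15-202, the one with the largest share (36.2%), was at 0.49 ± 0.20 (padj = 0.171) and Snhg15-201 at 0.65 ± 0.42 (padj = 0.385). Of Snhg17, the spliced Snhg17-209 rose (0.41 ± 0.10, padj = 0.0353), and the retained-intron Snhg17-204, with 46.3% of the counts, did not pass (0.20 ± 0.11, padj = 0.307).

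**Figure D4:**
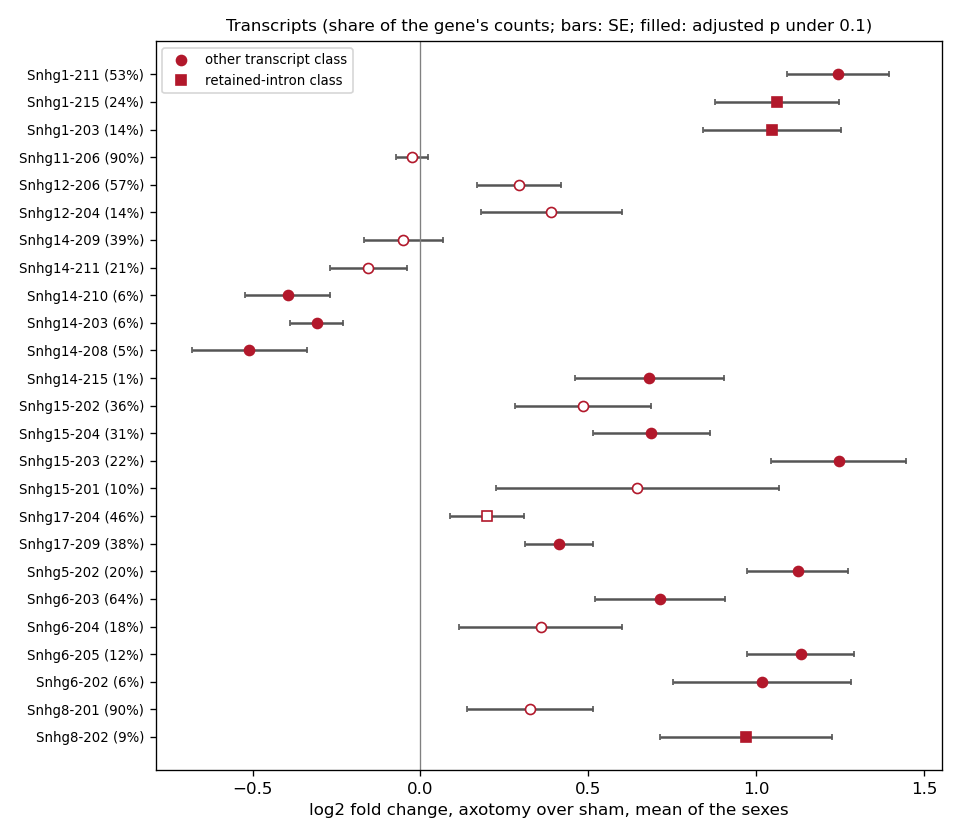
Log2 fold change of axotomy over sham, mean of the sexes, for the 25 named transcripts of the Snhg genes other than Snhg9 that had counts in every library, with standard errors as bars, filled symbols where padj is under 0.1 and squares for the retained-intron class. The percentage is each transcript's share of its gene's counts. The 3 Snhg1 transcripts lie between 1.05 and 1.24, and 3 of 6 Snhg14 transcripts lie below 0 with filled symbols.

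Of the 28 transcripts of Snhg5, 21 had counts and Snhg5-202 was the only one called (20.2% of counts, log2FC 1.12 ± 0.15, padj = 0.00477). It had 2.32, 2.51 and 1.87 CPM in female axotomy DRG against 1.10 and 1.32 CPM in female sham DRG, and 3.07, 2.22 and 2.39 CPM in male axotomy DRG against 0.96 and 1.03 CPM in male sham DRG. The 4 other transcripts with at least 10% of the counts (Snhg5-201, Snhg5-216, Snhg5-219 and Snhg5-214) were at 0 in 2 to 5 libraries each, and only the gene's summed value is read for them. In Snhg8 the main transcript Snhg8-201 (90.2% of counts) was at 0.33 ± 0.19 (padj = 0.318), and the minor retained-intron Snhg8-202 (8.64%) rose by 0.97 ± 0.26 (padj = 0.0454). Snhg11 was represented almost wholly by Snhg11-206, a transcript of 5864 bases with 89.9% of the counts (−0.03 ± 0.05, padj = 0.798), and none of its 7 transcripts was called. None of the 8 tested transcripts of Snhg12 was called, although the gene was. Its main one, Snhg12-206 (56.8%), was at 0.29 ± 0.13 (padj = 0.183), Snhg12-204 at 0.39 ± 0.21 (padj = 0.287) and Snhg12-210, at 0 in 1 library, at 0.97 ± 0.91 (padj = 0.565).

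Snhg14 was the member with transcripts called in both directions. In the mean of the sexes Snhg14-203 (−0.31 ± 0.08, padj = 0.0402), Snhg14-210 (−0.40 ± 0.13, padj = 0.0814) and Snhg14-208 (−0.51 ± 0.17, padj = 0.0967) fell and the short Snhg14-215 rose (0.68 ± 0.22, padj = 0.0882). Snhg14-203 was at −0.02 ± 0.11 in females (padj = 0.979) and −0.60 ± 0.11 in males (padj = 0.0234). Snhg14-210 was at −0.17 ± 0.18 in females (padj = 0.737) and −0.62 ± 0.18 in males (padj = 0.0753). A difference between the sexes was not tested for transcripts. The main transcripts Snhg14-209 (38.5% of counts) and Snhg14-211 (20.9%) were at −0.05 ± 0.12 (padj = 0.844) and −0.16 ± 0.12 (padj = 0.454).

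The share of a gene's counts assigned to intron-retaining transcripts was compared for the 4 members with at least 5% of their counts in that class, a comparison chosen after the values were seen. In Snhg1 it was 44.4 ± 5.02% in axotomy DRG and 47.5 ± 3.14% in sham DRG, in Snhg17 47.5 ± 4.12% and 49.1 ± 1.43%, in Snhg5 58.6 ± 7.46% and 51.2 ± 10.8%, and in Snhg8 9.84 ± 3.00% and 6.19 ± 1.03% (SD, n = 6 axotomy and n = 4 sham libraries, axotomy first). In a two-sided exact permutation test within the sexes, with 100 arrangements and a smallest possible p of 0.01, the p-values were 0.30 for Snhg1, 0.50 for Snhg17, 0.25 for Snhg5 and 0.07 for Snhg8 (Benjamini-Hochberg adjusted over the 4 tests 0.40, 0.50, 0.40 and 0.28). None of the 4 differences passed the test. For Snhg5 the share ran from 41.6 to 66.6% within the sham libraries. Its difference was 1.16 to 13.6 points with each library left out in turn. It also rests on the uncertain division of reads between the transcripts of that gene.

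Other genes of the snoRNA pathway were read from lists. Of the other lncRNA hosts of snoRNAs, 7 of 8 were tested, and 5 rose and none fell in the mean of the sexes (median log2FC 0.44). Gas5, a host with a 5′ oligopyrimidine tract that is known as a target of nonsense-mediated decay, had 95.3 to 114 CPM in female axotomy DRG against 64.1 to 71.3 CPM in female sham DRG, and 101 to 130 CPM in male axotomy DRG against 59.3 to 63.6 CPM in male sham DRG (log2FC 0.76 ± 0.09, padj = 0.000214). Zfas1, a further host, was at 0.44 ± 0.07 (padj = 0.000727). Both log2FC lie between those of Snhg12 and Snhg5.

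Proteins of the snoRNA particles and of their assembly were read in the same way. All 5 box C/D snoRNP proteins on the list rose in the mean of the sexes (median log2FC 0.31), with Nop58 at 0.68 ± 0.10 (padj = 0.00044) and Snu13, the protein that binds the kink-turn formed by the C and D boxes, at 0.32 ± 0.05 (padj = 0.000717). Of the 6 genes on the box H/ACA list, which includes Naf1 and Shq1, 3 rose, none fell and 3 did not pass (median 0.26). Among those that rose were Nop10 (0.36 ± 0.08, padj = 0.00515) and Nhp2 (0.43 ± 0.10, padj = 0.00754). Of 7 snoRNP assembly factors 3 rose and 1 fell. Znhit3 rose (0.37 ± 0.07, padj = 0.00276) and Ruvbl1, an ATPase of the assembly complex, fell (−0.23 ± 0.05, padj = 0.00347).

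Of 9 nucleolar factors of ribosome assembly 5 rose and 2 fell (median log2FC 0.17), with nucleolin (Ncl) at 0.30 ± 0.06 (padj = 0.0021) and nucleophosmin (Npm1) at 0.38 ± 0.07 (padj = 0.0026). The 10 nonsense-mediated decay factors tested had a median log2FC of −0.05 in the mean of the sexes. Of these only Upf3a, a protein that binds exon junction complexes, was called higher (0.19 ± 0.07, padj = 0.0639). Upf3a was called neither in females (padj = 0.248) nor in males (padj = 0.198). Of the 6 tested genes of the imprinted region around Snhg14 none rose and 1 fell, Magel2 (−0.73 ± 0.25, padj = 0.0379), which was at 0.11 to 0.22 CPM in male axotomy DRG against 0.45 to 0.52 CPM in male sham DRG and at 0.27 to 0.48 CPM in female axotomy DRG against 0.36 to 0.42 CPM in female sham DRG. Its sex by injury difference was not called (padj = 0.327). The shares of all genes called, 23.9% higher and 22.6% lower, apply to these lists as well.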

How the data were processed

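The authors made stranded poly-A libraries and quantified Gencode M27 (GRCm39) transcripts with Salmon 1.3.0 after Trimmomatic 0.39, per the submitters' processing notes, with sequence and GC bias corrections. The deposited files give, per library and transcript, the estimated counts, the TPM and the effective length. The authors' values were used as deposited. Estimated counts were summed per gene, rounded and fitted in edgeR 4.0.16 (R 4.3.3) with TMM scaling, the effective length as an offset, filterByExpr (minimum count 10) and 1 mean per group over all 10 libraries. The standard error of a log2FC comes from its F value. DESeq2 1.42.0, RLE scaling, no offset, other filters, a replicate block, fits within a sex and each library left out were the alternatives. The unit of the tests is the count, and CPM per library are scaled without the offset. Same-numbered libraries are not described as paired, and their residual correlation was −0.16 to 0.30 over 13 pairs. The members and the lists were chosen with earlier results of these data known. Named transcripts held at least 10% of a gene's counts or were called, of each list the 2 genes of smallest p are named (1 gene of the decay list is not reported here), and of Snhg11 the 5 genes of highest r. A planned test of transcript usage made 362 false and 10 true calls among 181 changed transcripts of simulated data and is not reported. Positions and sequences come from Gencode M21 and RefSeq (GRCm38), never converted. Counting floors cover counting error only.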

Additional observations from a re-analysis of the deposited data

How the results depend on the processing

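The number of the 9 members called (Snhg9 left out) moved with single libraries and with the processing. It was 5 in females, with 1 to 5 when each library was left out in turn, 8 in males with 2 to 8, and 6 in the mean of the sexes with 5 to 7. The mean count was 8 without the length offset, 7 in DESeq2 and 5 without a filter on low counts, where Snhg17 was lost (padj = 0.107). In males it was 4 without a filter on low counts and 4 with each sex fitted on its own libraries. For the sex by injury difference it was 0, with 0 to 2 when a library was left out (2 without male axotomy 2). For male against female axotomy DRG it was 0, with 0 to 4 when a library was left out (4 without male axotomy 2), 2 in DESeq2 and 1 without a filter. In sham DRG it was 0 throughout. Shares of all genes or transcripts called were not computed for these alternatives, so their counts have no background. Leaving out a sham library leaves 1 in that group, which is assumed to vary like the others. The transcripts of these 9 members called were 2 in females (0 to 4 with a library left out, 1 with the replicate block), 13 in males (0 to 16) and 15 in the mean of the sexes (6 to 17). The share of all transcripts called was computed for the mean of the sexes alone. The female and male counts are therefore not read as a sex difference of the members. With the replicate block, genes called were 4 in females, 7 in males and 6 in the mean of the sexes, and the members' transcripts 1, 11 and 10, the block not being a pairing. The gene calls that it ended were those of Snhg6 in females (padj = 0.109) and Snhg8 in males (padj = 0.160). Over 882 alternative values of single members 60 lost a call, 15 gained one and none of the called ones turned its sign. RLE scaling and left-out libraries were not run for the test of transcript usage. What ended each call was not tested beyond the smaller number of libraries.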
